A study of Mus musculus with 12 samples.

Results

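Malat1 and Neat1 are neighbouring genes of mouse chromosome 19 whose RNAs stay in the nucleus. They were followed in mouse embryonic stem cells (mESCs) through every exon and intron row that carries either gene name in GENCODE M1. This gave 14 of 213131 rows of the quantification table. Malat1 had 5 transcripts, with 5 exon and 4 intron rows, and Neat1 had 3 transcripts, with 3 exon and 2 intron rows. A further Neat1 transcript of GENCODE, Neat1-004, is not among the table's rows. The cells were of the male (XY) line DTCM23/49, with no genetic change named in the labels, and all of them received 4-thiouridine (4sU), a uridine analog built into RNA made while it is present, at 200 µM. Exposure lasted 15, 30 or 60 min, so there was no group without 4sU. One culture had been divided in 2 and passaged 8 times to give 2 biological replicates, and p-values therefore measure the spread between descendants of a single culture. From each of the 6 dishes, RNA was sequenced as total RNA and as labeled RNA, the part pulled down through biotin on the 4sU, which made 12 libraries.

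Malat1 (metastasis associated lung adenocarcinoma transcript) is among the most abundant RNAs of most mammalian cells and gathers in nuclear speckles, bodies rich in splicing factors. Neat1 (nuclear enriched abundant transcript) is the architectural RNA of paraspeckles. It is made as a short polyadenylated form and as a long form that reads on past that site, and the long form holds the paraspeckle together. Neither the Malat1 RNA nor long Neat1 ends in an ordinary poly(A) tail. RNase P cuts each of them behind a genomically encoded A-rich stretch, which folds with upstream U-rich stretches into a triple helix, and the piece released from Malat1 is a small tRNA-like RNA called mascRNA. Embryonic stem cells are known for few paraspeckles and little of the long Neat1 form.

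All positions are those of GENCODE M1 on NCBIM37 (mm9), and both genes lie on the minus strand. The labels name mm10 for the authors' own processing, and no position was carried over between the builds. Malat1-001 (ENSMUST00000172812) is a single exon of 6982 bases at chr19:5795690-5802671. Neat1-001 (ENSMUST00000173672) is a single exon of 20771 bases at chr19:5824708-5845478 and stands for the long form. Neat1-002 (ENSMUST00000174287, chr19:5842307-5845476) stands for the short form, with 3004 exonic bases around an intron of 166. The ends of these transcripts are shown because they are the annotated ends of the long and short forms. Capitals mark the A-rich stretch in the first pair and the polyadenylation hexamer in the last sequence, all written 5′ to 3′ as DNA of the transcribed strand.
Malat1-001, A-rich stretch with 30 bases before and 70 after it, chr19:5795912-5796029: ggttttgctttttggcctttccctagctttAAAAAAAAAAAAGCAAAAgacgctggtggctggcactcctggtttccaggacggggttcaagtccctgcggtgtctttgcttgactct
Neat1-001, last 60 bases, chr19:5824708-5824767: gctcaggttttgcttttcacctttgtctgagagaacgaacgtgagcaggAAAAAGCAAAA
Neat1-002, last 60 bases, chr19:5842307-5842366: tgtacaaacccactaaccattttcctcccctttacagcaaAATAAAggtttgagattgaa
The letters AAAAAGCAAAA occurred 1 time in Malat1-001 and 1 time in Neat1-001. On both strands of chromosome 19 together, 0.0186% of 60-base windows held them. Neat1-001 ended on this stretch, whereas the Malat1-001 annotation ran on past it. The hexamer AATAAA was found in 4.48% of the same windows, 4 times in Malat1-001 and 6 times in Neat1-001.

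The other Malat1 transcripts of the table are short spliced models at either end of the gene. Malat1-003 (ENSMUST00000173499, 485 exonic bases) and Malat1-004 (ENSMUST00000173523, 656) lie within the first 756 bases, and Malat1-002 (ENSMUST00000173314, 556) and Malat1-005 (ENSMUST00000174808, 656) within the last 1775. Each intron of either gene lies, over 100.0% of its length, inside the exon of Malat1-001 or Neat1-001. An intron row of these genes therefore also measures the unspliced mature RNA, and it cannot be read as precursor. The introns of Malat1-002 and Malat1-005 hold the A-rich stretch shown above. The splice sites of the rows with the highest and the lowest intronic value are given with the first or last intron bases in capitals.
Malat1-003, 5′ splice site, chr19:5802229-5802243: aatgagGTgtagttt
Malat1-003, 3′ splice site, chr19:5801963-5801986: tgtcttgaaaaaacaaaaAGgtta
Malat1-004, 5′ splice site, chr19:5802057-5802071: gcagagGCaggcgga
Malat1-004, 3′ splice site, chr19:5802020-5802043: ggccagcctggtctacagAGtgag
The intron of Malat1-004 spans 42 bases, starts with GC in place of the usual GT, and had no value in any of the 12 libraries.

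The cells carried the markers of pluripotent cells. All 7 of the pluripotency genes looked for passed the filter on low values, with means in total RNA from 163 for Zfp42 to 6766 for Dppa5a, and the sum over the list was 13142 to 18219 in total and 14419 to 24254 in labeled RNA. Of 15 markers of neural, mesodermal, endodermal, trophectodermal or fibroblast cells, 14 were in the table and 1 passed the filter, Thy1 at 38.6 in total RNA, while Cdx2 and Dcn were listed at 0 throughout. The values are length-normalized abundances scaled to 19988830 to 19992901 per library, so they compare levels per base. The read depth behind each library cannot be read from them. The labeled libraries were not alike. Intronic rows held 6.53% to 7.41% of the whole value in total RNA and 9.35% to 14.8% in 4 labeled libraries, but 7.24% and 6.99% in those of replicate 2 at 15 and 60 min. The main comparisons of labeled with total RNA are therefore also given without these 2 libraries.

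Malat1 was abundant in every library, and its 9 rows together made up 0.320% to 0.703% of the value of total RNA libraries. Malat1-001 ranged from 5908 to 9805 in total RNA, with a median of 8836. In labeled RNA it ranged from 5034 to 15221, with a median of 8890. The labeled values spread further on both sides, and the groups overlapped over the whole range of total RNA. Its mean in total RNA was 8325 ± 1605 (SD, n = 6), the 272nd highest of 121429 exon rows. Of the 4 short models, Malat1-004 was highest, at 23266 ± 7367 (SD, n = 6) and rank 54. Malat1-003 followed at 8999 ± 3161, Malat1-002 at 2953 ± 660 and Malat1-005 at 1000 ± 159. The order of the means in total RNA was thus Malat1-004, Malat1-003, Malat1-001, Malat1-002 and Malat1-005. Malat1-003 and Malat1-001 did not differ beyond their spread, while the other neighbours in this order did not overlap in total RNA.

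The highest Malat1 value was not exonic. The 271-base intron of Malat1-003 reached 34075 to 79567 in total RNA, with a median of 53052, which was rank 1 of 91702 intron rows. In labeled RNA it ranged from 30232 to 107373, with a median of 54468. The intron stood 5.86 to 6.54 times above the exons of the same transcript in total RNA and 5.58 to 7.17 times in labeled RNA. Among 36718 transcripts with introns and an exonic mean of at least 20, this ratio was at the 99.8th percentile, and the median ratio was 0.126. The other Malat1 introns with values were below their exons in total RNA. They averaged 0.307 ± 0.0489 of the exonic value for Malat1-002 and 0.352 ± 0.114 for Malat1-005 in total RNA (SD, n = 6). In labeled RNA the ratio of Malat1-005 reached 1.01 in 1 library.

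**Figure D1:**
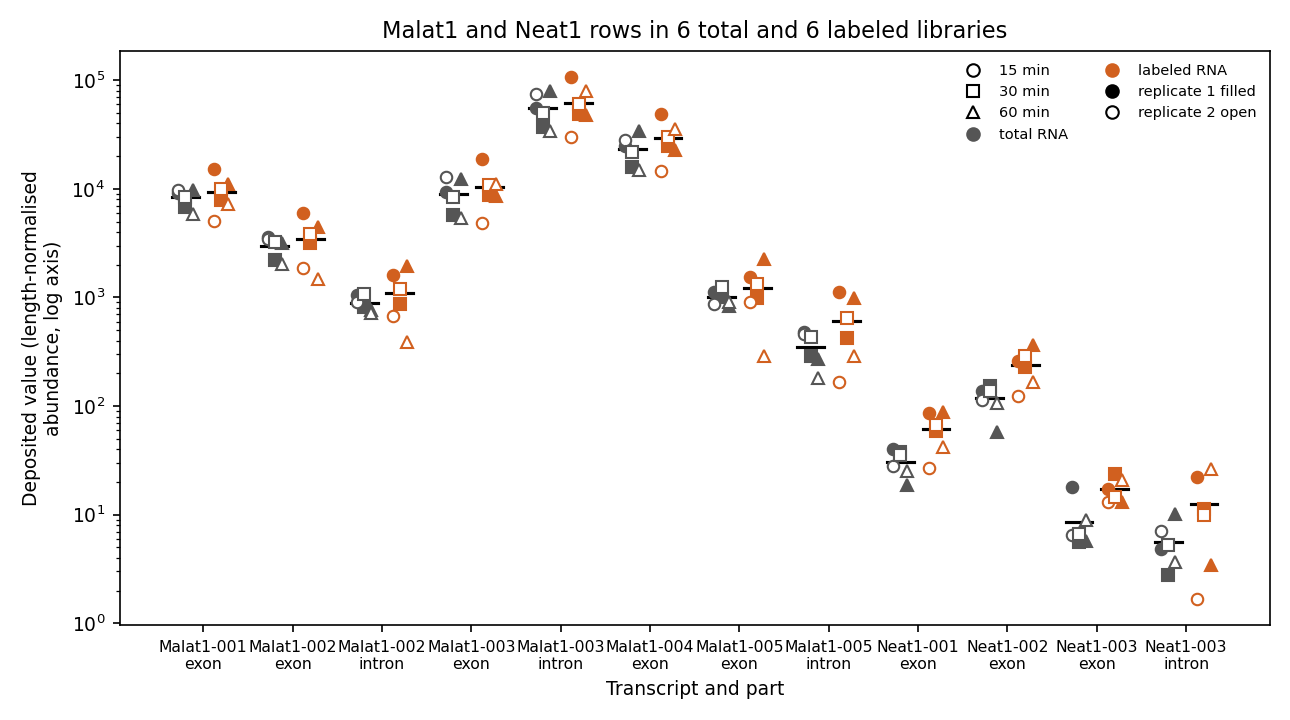
Deposited values (length-normalized abundance, log axis) of the 12 Malat1 and Neat1 rows that have a value in all libraries, for total RNA (grey) and labeled RNA (orange) at 15 min (circles), 30 min (squares) and 60 min (triangles), replicate 1 filled and replicate 2 open, with black bars at the mean of 6 libraries. Malat1-003 intron is highest, at 30232 to 107373 over all libraries, and the Neat1 rows lie below 400.

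Summed over all rows that cover a base, Malat1 fell into a high 5′ block, a long middle and a slightly raised 3′ block. The first 756 bases averaged 54146 ± 16608 in total RNA (SD, n = 6), and bases 757 to 5207, where Malat1-001 is the only Malat1 row, 8325 ± 1605. The last 1775 bases averaged 10348 ± 1886. Malat1-001 covers every base and the other rows only add to it, so both end blocks had to lie at or above the middle. The ratio of the 5′ block to the middle was 5.48 to 7.77 in total RNA and 4.77 to 10.1 in labeled RNA. That of the 3′ block to the middle was 1.20 to 1.28 and 1.13 to 1.35. For neither ratio did the difference between the fractions pass (exact permutation test, two-sided, p = 0.634 and p = 0.697), and these blocks were drawn after the values had been seen. The log2 differences without labeled replicate 2 at 15 and 60 min were -0.0364 and 0.0476 (exact permutation test, p = 0.810 and 0.0952).

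The 5′ block holds a stretch that is copied throughout the genome. Of the 31-base words of Malat1-001, 2.36% occur more than once in NCBIM37. Within bases 566 to 704 lie 109 words with over 100 copies each, with a median of 13018 and a maximum of 36156 copies. These words make up 45.2% of those in the intron of Malat1-003 and 6.21% of those in the exons of Malat1-004, the rows with the highest values. They also make up 100.0% of those in the intron of Malat1-004, which had no value in any library but is too short to hold a whole read. The exons of Malat1-003 hold 0 repeated words, and its level was close to that of Malat1-001. How reads from other copies were assigned is not given in the sources used here, and the part of the repeat in the 5′ values was not tested. The whole intron is shown, with the bases of the high-copy words in capitals.
Malat1-003, intron, chr19:5801967-5802237: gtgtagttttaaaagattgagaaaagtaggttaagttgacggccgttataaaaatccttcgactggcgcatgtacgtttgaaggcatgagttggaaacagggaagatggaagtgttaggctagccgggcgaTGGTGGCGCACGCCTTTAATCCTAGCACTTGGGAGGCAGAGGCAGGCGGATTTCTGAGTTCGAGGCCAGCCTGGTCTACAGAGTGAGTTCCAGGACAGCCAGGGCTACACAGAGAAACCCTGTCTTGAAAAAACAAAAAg
Neat1-001 holds repeated words too (2.07% of its words), all of them past the end of the short form.

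**Figure D2:**
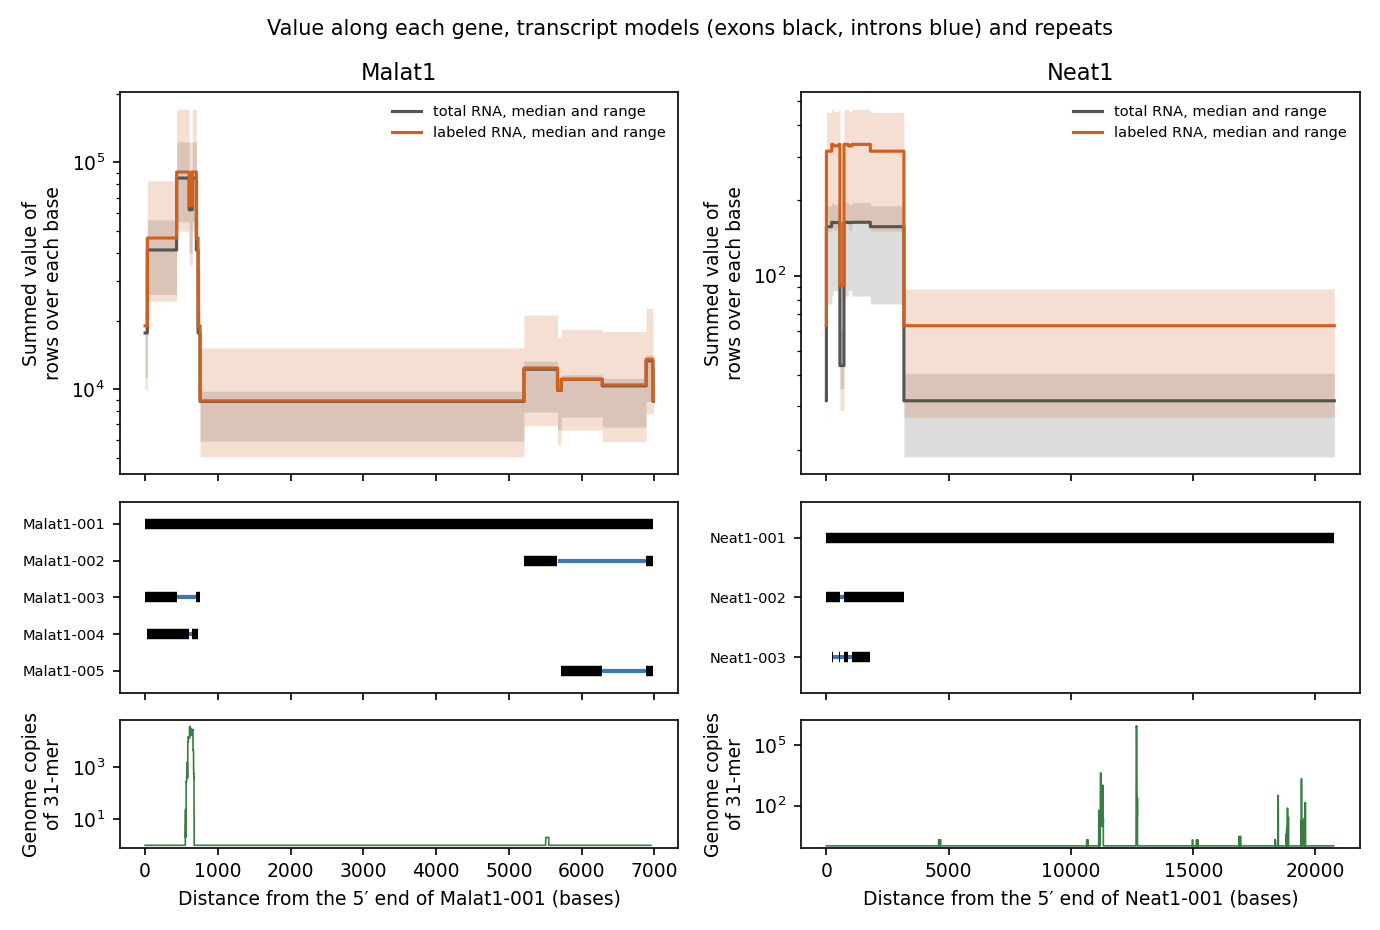
Top, summed value of all rows covering each base (log axis) against the distance from the 5′ end in bases, for Malat1 (left) and Neat1 (right), as the median (line) and range (band) of 6 total (grey) and 6 labeled (orange) libraries. Middle, exons (black) and introns (blue) of each transcript in the table. Bottom, genome copies of the 31-base word starting at each base (log axis). The medians of labeled and total RNA nearly coincide along Malat1, 8890 and 8836 in the middle, while along Neat1 the labeled median is about 2 times the total one, 63.0 against 31.5 in the distal part.

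An annotated gene on the opposite strand lies inside Malat1. Gm20417 (a processed transcript at chr19:5797562-5798549, plus strand) had values of 4522 to 8060 in total RNA and 3975 to 18721 in labeled RNA. This was 0.747 to 0.878 of Malat1-001 in total RNA and 0.790 to 1.23 in labeled RNA. Over the 12 libraries the log2 values of Gm20417 and Malat1-001 had a Pearson r of 0.965, with points that share their libraries. Whether strand was used in counting is not given in the sources used here, so reads of Gm20417 and of this stretch of Malat1 cannot be told apart, and both values are uncertain for that reason.

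Neat1 was a low-abundance RNA by comparison. Neat1-002, the short form, ranged from 58.2 to 153 in total RNA with a median of 125, and its mean of 118 ± 33.9 (SD, n = 6) was rank 17166 of 121429 exon rows. Neat1-001, the long form, ranged from 18.8 to 40.6 with a median of 31.5 and a mean of 30.8 ± 8.31. The short form was 3.10 to 4.22 times the long form in total RNA and 3.03 to 4.57 times in labeled RNA. Neat1-003, a spliced model near the 5′ end, was at 5.66 to 18.0 and below the filter. The intron of Neat1-002 was listed at 0 in 1 total and 2 labeled libraries, and elsewhere reached 6.37 to 53.7. Malat1-001 was 183 to 518 times Neat1-001 in total RNA and 127 to 186 times in labeled RNA. The first 3172 bases of Neat1 averaged 146 ± 40.0 and the distal 17599 bases, which only Neat1-001 covers, 30.8 ± 8.31 in total RNA. Their ratio of 4.15 to 5.15 was 4.01 to 5.49 in labeled RNA, and no difference between the fractions passed (exact permutation test, p = 0.537). Neat1-001 covers both parts and the other rows only add to it, so the first part had to lie at or above the distal one.

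Labeled RNA is enriched for recent transcripts, and its comparison with total RNA at the same times asks which RNAs are over-represented among newly made molecules. No difference between the fractions passed for Malat1 exons. All 5 exon rows of Malat1 were tested and 0 passed. The log2 difference, labeled minus total on log2(value + 1), was 0.12 for Malat1-001 (SE 0.25) with an adjusted p of 0.777 by limma. It was 0.30 for Malat1-004 (SE 0.29, adjusted p = 0.514), the largest of the 5, and 0.06 for Malat1-005 (SE 0.39, adjusted p = 0.932), the smallest. Of all 45537 exon rows tested, 17.3% passed in either direction. With a replicate block, a term for each pair of labeled and total libraries of the same labeling time and replicate number, 9.82% passed. Summed over exons, Malat1 was 44542 ± 12454 in total and 53938 ± 20731 in labeled RNA (SD, n = 6 each), a log2 difference of 0.24 (exact permutation test, p = 0.468). Without labeled replicate 2 at 15 and 60 min 27.9% of all exon rows passed. The 5 Malat1 rows were then at 0.45 to 0.61, of which Malat1-002 passed at 0.61 (adjusted p = 0.0235), and the summed exons differed by 0.43 (exact permutation test, p = 0.186).

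The ratio varied widely between dishes, with labeled and total libraries paired by replicate number. The replicate differences of the 2 fractions did not bear this pairing out (r = -0.300 over exon rows at 60 min). The ratios below depend on it. For Malat1-001 the labeled to total ratio was 1.66 in replicate 1 and 0.513 in replicate 2 at 15 min. The 4 dishes of 30 and 60 min lay between 1.15 and 1.24. For the 5′ rows the 60 min dishes split as well. Malat1-004 was at 0.667 in replicate 1 and 2.39 in replicate 2, whereas Malat1-005 at the 3′ end went the other way, at 2.72 and 0.315.

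Neat1 was higher in labeled RNA, by a margin that depended on the fit and on single libraries. Neat1-002 ranged from 124 to 362 in labeled RNA with a median of 243, against 58.2 to 153 in total RNA. The groups overlapped only through the labeled library of replicate 2 at 15 min, and labeled RNA was higher in 6 of 6 dishes, which held for 6.13% of exon rows. Dishes were paired by replicate number here and in all paired tests, and the replicate differences of the fractions did not bear this pairing out. All labeled values lay above all total values in 2.62% of exon rows, and in neither of the tested Neat1 rows. The log2 difference of 0.99 (SE 0.27) passed with an adjusted p of 0.0305 by limma. With the replicate block it did not pass (adjusted p = 0.0661), and over all alternatives tried the adjusted p ranged from 0.00707 to 0.546. It also missed the threshold when any one of 8 single libraries was left out, with adjusted p up to 0.0749 and differences of 0.80 to 1.05. These were labeled replicate 1 at 15 min, both labeled libraries at 30 min, and all total libraries except replicate 1 at 15 min. Neat1-001 ranged from 27.1 to 88.3 in labeled RNA with a median of 63.0 and was higher in 5 of 6 dishes. Its log2 difference of 0.91 (SE 0.30) missed the threshold (adjusted p = 0.0546). Among the differences of all exon rows, Neat1-002 stood at the 95.7th and Neat1-001 at the 95.0th percentile. Without labeled replicate 2 at 15 and 60 min both rows were at 1.27 and passed (adjusted p = 0.00707 and 0.0041).

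Summed over its exons, Neat1 was 157 ± 43.5 in total and 316 ± 107 in labeled RNA (SD, n = 6 each). The log2 difference of 0.99 had p = 0.0108 in the exact permutation test and p = 0.03125 over the 6 pairs, the smallest that 6 pairs can give. Like every exact permutation test here, both treat the 6 libraries or pairs as independent, although they come from 2 replicates at 3 times. The log2 difference was 1.30 without labeled replicate 2 at 15 and 60 min (exact permutation test, p = 0.00476). The 2 genes were then compared within each dish. The log2 ratio of labeled to total RNA was 0.75 higher for Neat1 than for Malat1 on average, and the difference did not pass (exact permutation test by sign changes over 6 pairs, p = 0.188). Without the 2 pairs that hold these labeled libraries it was 0.89 (exact permutation test, p = 0.25). With only the unspliced transcripts Neat1-001 and Malat1-001, a choice made after seeing the values, the difference was 0.81 and Neat1 had the higher ratio in every pair (exact permutation test, p = 0.03125, again the smallest possible).

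**Figure D3:**
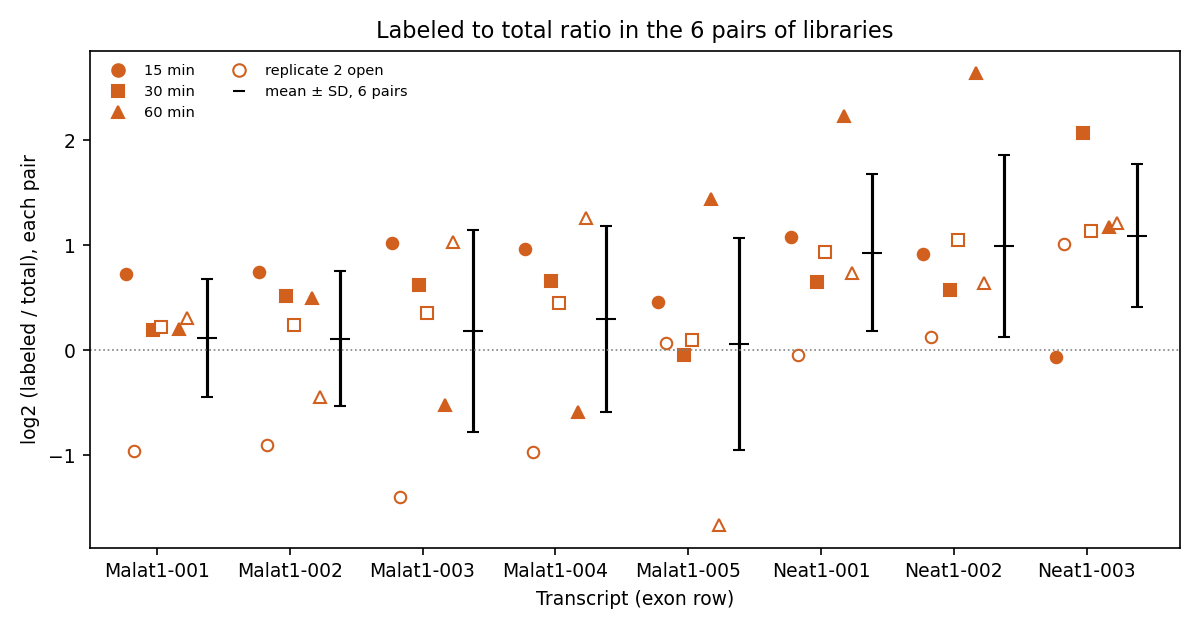
log2 ratio of labeled to total RNA for the exon rows of the 8 transcripts, in 6 pairs of libraries matched by labeling time and replicate number. Symbols give 15 min (circles), 30 min (squares) and 60 min (triangles), replicate 2 open, with the mean and SD of 6 pairs at the right of each transcript. Replicate 2 at 15 min lies lowest for Malat1-001, at -0.96, and replicate 1 at 60 min highest for Neat1-002, at 2.64.

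No intron of Malat1 passed the test between labeled and total RNA. The median log2 difference of the 18384 intron rows tested was 0.55, and 27.5% of them passed in either direction, 27% as higher and 0.5% as lower in labeled RNA. The 3 Malat1 introns that were tested had differences of 0.14 (Malat1-002, adjusted p = 0.774), 0.13 (Malat1-003, adjusted p = 0.776) and 0.58 (Malat1-005, adjusted p = 0.340), and 0 passed. They stood at the 18.9th, 17.9th and 51.6th percentile. With each library centred on its own median, the median difference of all introns became -0.04, and the 3 Malat1 introns moved to -0.45, -0.47 and -0.02 without passing. Without labeled replicate 2 at 15 and 60 min, 80.4% of all intron rows passed, with a median difference of 0.96. In that setting Malat1-002 passed at 0.65 and Malat1-005 at 1.22 (adjusted p = 0.0114 and 0.00163), and Malat1-003 was at 0.31 (adjusted p = 0.183). These 2 libraries were left out because their intronic share was low, a choice made after the values were seen. Leaving them out raises labeled introns by construction, so these passes are not evidence of a rise.

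The intronic share of Malat1, intron rows over all its rows, was 54.4% to 58.1% in total RNA and 50.8% to 59.0% in labeled RNA. The means of 55.6% ± 1.65 and 53.8% ± 2.84 (SD, n = 6 each) had overlapping groups, and their difference did not pass (exact permutation test, p = 0.203). Without labeled replicate 2 at 15 and 60 min, labeled RNA was lower by 2.96 percentage points (exact permutation test, p = 0.0333). With all 12 libraries, the average of the shares of single transcripts was 2.63 percentage points higher in labeled RNA (exact permutation test, p = 0.132). For Neat1 the share was 1.40% to 18.3% in total and 0.736% to 25.9% in labeled RNA, with overlapping groups (exact permutation test, p = 0.957). The intronic share of the whole table was 6.53% to 7.41% in total RNA and 6.99% to 14.8% in labeled RNA, so the Malat1 share stood above it in every library. The intron of Malat1-003 made up nearly all of the Malat1 share, with a mean of 55403 of the 56642 summed over Malat1 introns in total RNA. The other introns, at 887, 352 and 0, were small against the 44542 summed over exons.

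**Figure D4:**
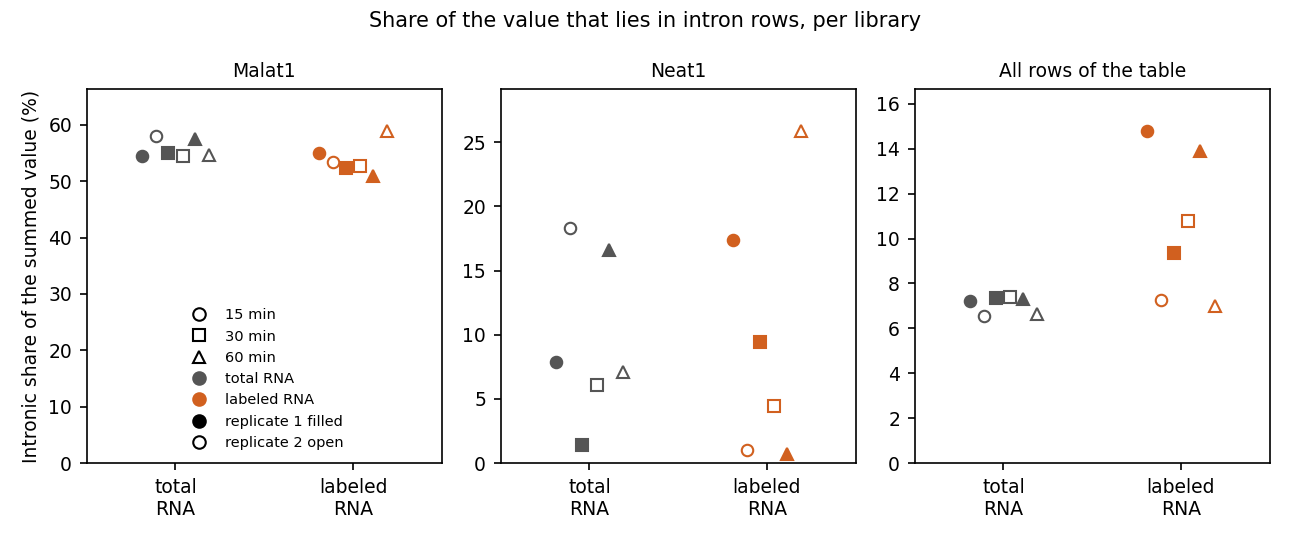
Share of the summed value that lies in intron rows (percent), per library, for Malat1, Neat1 and all rows of the table, in total (grey) and labeled (orange) RNA, with symbols for 15, 30 and 60 min and replicate 2 open. Malat1 stays between 50.8% and 59.0%, Neat1 ranges from 0.736% to 25.9%, and 4 of 6 labeled libraries lie above all total libraries for the whole table.

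Labeling time made no detectable difference to either RNA. Of 45537 exon rows tested with limma, 0 passed between 60 and 15 min in labeled RNA, in total RNA and in the ratio of labeled to total RNA, a share of 0% each. Without adjustment, 494, 296 and 402 rows had a p under 0.05. In labeled RNA the log2 difference between 60 and 15 min was 0.05 for Malat1-001 (SE 0.47) and 0.33 for Neat1-001 (SE 0.52). Both values turned negative without labeled replicate 2 at 15 min, at -0.75 and -0.48. In total RNA the differences were -0.32 and -0.61. In the ratio they were 0.37 and 0.94, and Neat1-002 was at 1.10 (SE 0.65). Each comparison rests on 2 libraries against 2, and the 2 labeled libraries of 15 min differed by more than 3-fold in Malat1-001 (15221 and 5034) and in Neat1-001 (85.5 and 27.1).

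Rows of Malat1 rose and fell together by their place in the gene. Over the 12 libraries, Pearson r of log2(value + 1) was 0.974 to 0.980 among the 3 rows of the 5′ block (Malat1-003 exons and intron, Malat1-004 exons). It was 0.612 to 0.949 among the 4 rows of the 3′ block and -0.14 to 0.68 between the blocks. The Neat1-003 introns lie near the 5′ end of Neat1, with a mean of only 9.04 over all libraries, below the filter. Their r was 0.815 to 0.896 with the 5′ rows of Malat1 and -0.38 to 0.38 with its 3′ rows. No other Neat1 intron row had a value in every library. Neat1-001 and Neat1-002 had an r of 0.967 with each other. All these points share libraries and reads can be divided between overlapping rows, so the values are descriptions only.

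**Figure D5:**
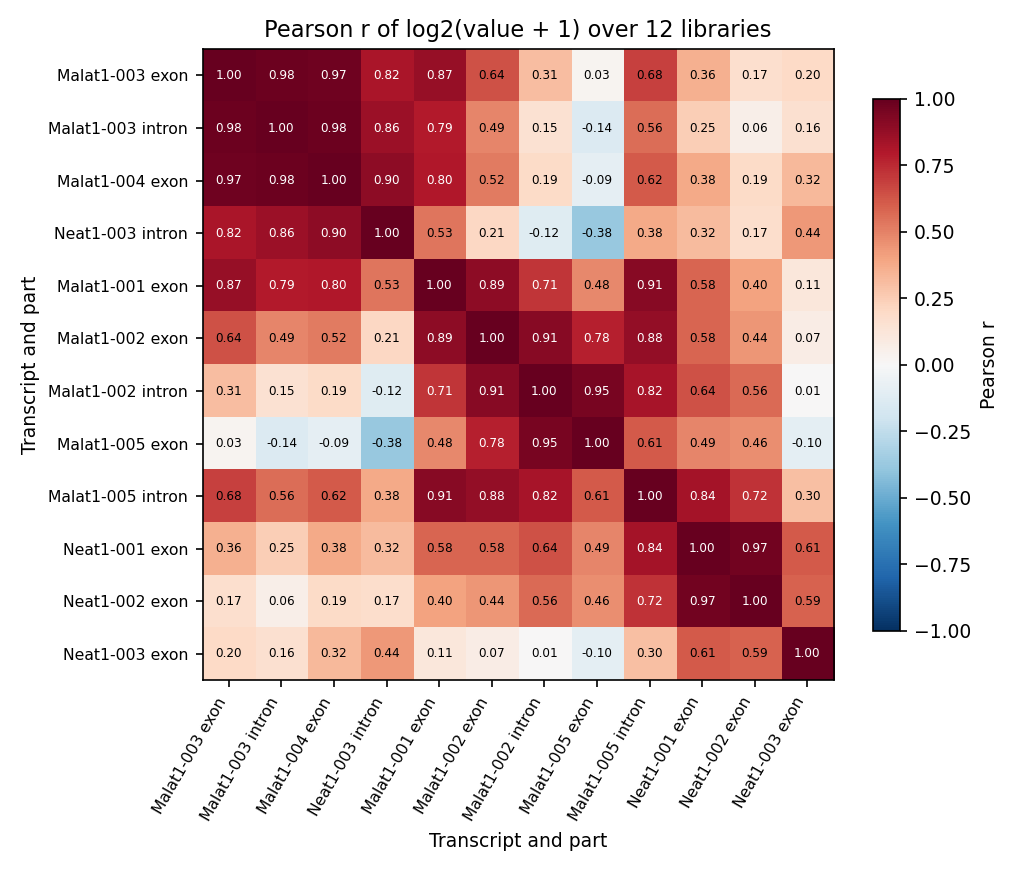
Pearson r of log2(value + 1) over the 12 libraries between the 12 rows with a value in every library, from blue (-1) through white (0) to red (1). The Malat1-003 and Malat1-004 rows form a block of 0.974 to 0.980 to which the Neat1-003 intron is close, the 3′ Malat1 rows form a looser block, and the Neat1 exon rows another. The Neat1-003 intron has a mean of only 9.04 over all libraries.

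Among 13732 genes with a symbol and a summed exonic mean of at least 20, those whose level over the 12 libraries was most like Malat1 included Taf15 (r = 0.968), Fam119b (0.948), Zfp326 (0.935) and AC161342.2 (0.908). Taf15 encodes an RNA-binding protein. Most like Neat1 were 4930581F22Rik (0.957), Fut11 (0.956), Gm16181 (0.952), 4930412M03Rik (0.945) and Catsper2 (0.936), with means of 18.3 to 40.3 in total RNA. Malat1 and Neat1 themselves had an r of 0.313.

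The proteins that work with these RNAs were looked at through lists of genes, each gene by its highest exon row, and read against the 5.28% of exon rows that were higher and the 12% that were lower in labeled RNA. All 18 paraspeckle protein genes were tested. In this list 3 were lower in labeled RNA and 0 higher, with a median difference of -0.17 against -0.09 for all exon rows. Cpsf6, a subunit of a 3′ end processing factor, was lowest at -0.97 (SE 0.19, adjusted p = 0.00723). The most abundant, Hnrnpa1, was at 5925 in total RNA with a difference of -0.40 (adjusted p = 0.150). The other 2 that fell were Hnrnpk and Smarca4, named after their values were seen to complete the count. Of 15 nuclear speckle genes 5 were lower and 0 higher, with a median of -0.18. With the replicate block 2 were lower, against 2786 of all 45537 exon rows. Thrap3, a splicing and mediator-associated protein, was at -0.66 (SE 0.12, adjusted p = 0.0045), and the most abundant, Srsf2, an SR splicing factor, was at -0.21 (adjusted p = 0.322).

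Genes for factors that form RNA ends, among them those of Malat1 and Neat1, were called in both directions. Of 17 such genes 1 was higher, 5 were lower and 11 did not pass, with a median of 0.01. Among all exon rows 17.3% passed, 5.28% as higher and 12% as lower. With the replicate block 2 genes of this list were lower, against 2786 of all 45537 exon rows. Rpp38, a protein subunit of RNase P, rose by 1.23 on the log2 scale (SE 0.20, adjusted p = 0.0028), from 83.7 to 141 in total RNA to 172 to 360 in labeled RNA, 2 ranges that did not overlap. Elac2, the RNase Z that trims tRNA 3′ ends and that of mascRNA, was at -0.69 (SE 0.13, adjusted p = 0.00657). The most abundant of the list was Rpp25 at 508 in total RNA, with a difference of 0.44 (adjusted p = 0.293).

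Other long noncoding RNA genes were higher in labeled RNA more often than lower. Of 23 such genes 14 were in the table under their symbol or an older one, 11 were tested, 6 were higher and 0 lower, with a median of 0.87. The largest difference was 1.70 for Dancr (SE 0.24, adjusted p = 0.00167), and the most abundant gene, Gas5, a host of small nucleolar RNAs, was at 0.77 (adjusted p = 0.0874). The others that were higher were Zfas1 (1.36), Tsix (1.17), Snhg12 (1.13), Epb41l4aos (0.93) and Snhg3 (0.87). The Snhg genes are small nucleolar RNA hosts by name. Which other genes of the list host such RNAs was not examined, so its median does not stand for long noncoding RNAs as a class. Those that did not pass, apart from Gas5, were Mir17hg (0.58), Firre (0.48), Meg3 (0.24) and Tug1 (0.12). All of these were named after their values were seen. Neat1-002 at 0.99 was thus above the median of this mixed list. Malat1-001 at 0.12 was below it, level with Tug1. Of 11 protein-coding genes near the locus, 2 passed the filter. Dpf2, a subunit of chromatin remodeling complexes, fell by 0.69 (SE 0.18, adjusted p = 0.0238), a call that did not pass with the replicate block, median centring or quantile normalization. The other, Pola2, named after its values were seen and part of the DNA polymerase alpha complex, was at 0.01 (adjusted p = 0.976). Leaving out either replicate ended the calls of Cpsf6, Thrap3, Elac2, Rpp38, Dancr and Dpf2. Of all 45537 exon rows, 0 passed without replicate 1 and 7 without replicate 2. With labeled replicate 2 at 15 and 60 min left out, 1 paraspeckle gene was higher and 4 were lower, and the counts of the other lists were 0 and 5 (nuclear speckle), 1 and 5 (RNA ends), 6 and 0 (long noncoding RNA) and 0 and 1 (neighbours). In that setting 5293 of all 45537 exon rows were higher and 7406 were lower.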

How the data were processed

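Total and 4sU-labeled RNA of 12 libraries was sequenced as single-end reads. The deposited values are a signal per transcript, separately for its exons and introns. The authors removed ribosomal RNA reads with STAR 2.5.0, mapped what was left with STAR against sequences of exons and of introns, and estimated abundance by RSEM, on mm10 per the labels. The file does not state its scale. The values sum to 19988830 to 19992901 per library, and no value below 1.01 is present, so missing values were taken as 0. The values keep no read counts and the depth of single libraries is not given in the sources used here, so no counting interval was computed. Whether strand was used is not given in the sources used here.

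Of 121429 transcripts, 69.05% matched GENCODE M1, which gave gene names and positions. Rows with a mean of at least 20 were tested on log2(value + 1) with limma 3.58.1 in R 4.3.3, with labeling time as a covariate, a trend in the variance and Benjamini-Hochberg adjustment over all rows tested (threshold 0.05). The test was checked on simulated data. Single values were compared by two-sided exact permutation tests (full enumeration in Python 3.11.15 with numpy 2.4.6). Genes named are all transcripts of Malat1 and Neat1, the 5 genes most like each in level (1 of them is not reported here), and, in each list of other genes, the most abundant one and that with the largest change past the threshold in each direction. The members and lists were chosen with earlier results of these data known. Alternatives were another pseudocount, no filter, median centring, quantile normalization, a replicate block, and leaving out libraries or replicates.

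Per the labels a replicate number marks a shared culture, and labeled and total RNA of a dish came from the same extract. As a check, the differences between replicates 1 and 2 were correlated between labeled and total RNA over 45537 rows, and r was -0.0892 (15 min), 0.0742 (30 min) and -0.300 (60 min). These values did not bear out the pairing, which rests on the labels. Results by dish, by pair or with the replicate block depend on it.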

Additional observations from a re-analysis of the deposited data

Results flagged for a closer look

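Of 52 groups of 6 values, 3 had a value that lay far from the rest by Dixon's test at its 0.05 level, and chance gives about 1 in 20. The exons of Neat1-003 in total RNA were highest in replicate 1 at 15 min, at 18.0 with a ratio of gap to range of 0.728. The log2 ratio of labeled to total RNA of Malat1-001 was lowest in replicate 2 at 15 min, at -0.96 (0.685). That labeled library is also one of those whose intronic share was as low as in total RNA. The log2 ratio of Neat1-002 was highest in replicate 1 at 60 min, at 2.64 (0.632). In that pair, matched by replicate number only, the total RNA value, 58.2, was the lowest of the 6 and the labeled value, 362, the highest.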

How the results depend on the processing

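The values hold no read counts, so no counting error is given for low rows such as those of Neat1-003, and 2 replicates from 1 culture limit every test. Without replicate 1 or 2 as a whole, groups of 3 cannot go below p = 0.1 in an exact permutation test and 3 pairs not below 0.25. Causes of the changes below were not tested.

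The replicate block lowered the number of exon rows that differed between labeled and total RNA from 7888 to 4470, and ended the call of Neat1-002. With the numbers crossed at 60 min, chosen after seeing the data, the block gave 9153 exon and 6184 intron rows, with 2 of the 2 tested Neat1 exon rows among them. Without labeled replicate 2 at 15 and 60 min, also chosen after seeing the data, 12699 exon and 14781 intron rows passed, and without the filter 15075 intron rows. The count of 14781 is raised by choosing the 2 libraries on their low intronic share. Leaving out replicates or single libraries gave 0 to 10439 exon and 1825 to 8966 intron rows, the lowest without replicate 1. Without replicate 2 as a whole, 7 exon and 7281 of 18384 intron rows passed (median of all introns 0.93), among them the introns of Malat1-002, Malat1-003 and Malat1-005 (adjusted p = 0.0285, 0.0446 and 0.00138 by limma). Neat1-001 passed with median centring, quantile normalization or no covariate, and without labeled replicate 2 at 15 min (adjusted p = 0.0329, 0.0399, 0.0370 and 0.00645). Between 60 and 15 min, the pseudocount of 20 gave 7 rows in total RNA and 6 in the ratio, no filter gave 4 in labeled RNA, 12 in total RNA and 13 in the ratio, and the replicate block 9 in the ratio. Leave-one-out gave 0 to 7 in labeled RNA, 0 to 4 in total RNA and 0 to 6 in the ratio.

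The difference in intronic share of Malat1 became 2.63 as a mean over transcripts and -2.96 without the 2 labeled libraries, with a leave-one-out range of -2.88 to -0.74. For Neat1 these were -1.73, -1.56 and -0.0375 to 0.55. The difference of Neat1 and Malat1 in the labeled to total ratio was 0.81 with Malat1-001 and Neat1-001 only. The summed exons of Neat1 ranged from 0.63 to 1.34 without a replicate. Without the 2 labeled libraries, the 5′ to middle ratio of Malat1 was at -0.0364 and the 5′ to distal ratio of Neat1 at -0.00205. Without a replicate, the 5′ to middle ratio of Malat1 ranged from -0.0733 to 0.24 and the 3′ to middle ratio from -0.0297 to 0.0611.

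With median centring the Malat1 introns were at -0.45 (Malat1-002), -0.47 (Malat1-003) and -0.0197 (Malat1-005), and with quantile normalization Malat1-002 was at -0.13. Leaving out replicates or libraries gave differences between labeled and total RNA of -0.14 to 0.38 for Malat1-001, -0.37 to 0.59 for Malat1-002, -0.0142 to 0.48 for Malat1-003 and -0.50 to 0.62 for Malat1-005. The introns ranged from -0.39 to 0.68 (Malat1-002), -0.0643 to 0.39 (Malat1-003) and -0.0636 to 1.21 (Malat1-005). Between 60 and 15 min, Malat1-001 ranged from -0.75 to 0.84 in labeled RNA, -0.68 to 0.0336 in total RNA and -0.43 to 1.17 in the ratio, and Neat1-001 from -0.48 to 1.14 in labeled RNA.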

Other observations

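A further annotation, linc1317, shares the gene identifier of Neat1 in the annotation the study used. It is not part of GENCODE M1 under that name and was not counted as a Neat1 row. It had values of 83.5 to 163 in total RNA and 122 to 359 in labeled RNA, with a log2 difference of 0.85 (SE 0.26, adjusted p = 0.0431 by limma). With it added, the summed exons of Neat1 differed by 0.92 (exact permutation test, p = 0.0108).

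The ratio of the 5′ block to the 3′ block of Malat1 was 8.93 in labeled replicate 2 at 60 min and 3.54 in labeled replicate 1 at 60 min, while the other 10 libraries lay between 4.38 and 6.49.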
